A study of Homo sapiens with 18 samples.

Results

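The genes described here are 37 genes of the cellular response to low oxygen and of glycolysis, listed for their function. A gene was read from the transcript clusters, the probe groups that the array summarises into 1 value, whose gene symbols all lay in the list. This gave 36 clusters for 35 genes, of 21214 clusters with a gene symbol and 33297 in all. TPI1 had 2 clusters and is given by the brighter one. PGAM1, whose clusters also name PGAM4, and CA9 were not analysed here. The cells were HEK293, an established line of human embryonic kidney origin, carried through a transient transfection with Lipofectamine 2000 in serum-free medium. They received an expression vector for RHOXF1, an expression vector for RHOXF2 or an empty control vector, and are called RHOXF1 cells, RHOXF2 cells and control cells below. The treatment notes name pCMV6-AC-GFP beside the RHOX clones and do not say whether the RHOX plasmids also encode GFP. All groups shared the line, the reagent and the culture, and RNA was taken at 24 h or 48 h, which gave 6 groups of 3 arrays. The labels call the 3 arrays of a group biological triplicates, so the spread given is that between 3 samples, and their number limits the precision. RHOXF1 and RHOXF2 are homeodomain proteins of the reproductive homeobox family, and the arrays were run to learn which transcripts differ once either is introduced. Levels are log2 RMA values, a background-corrected and quantile-normalised signal per cluster, and all differences are on this scale.

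Cells sense oxygen through prolyl hydroxylases of the EGLN family, which mark the alpha subunit of the hypoxia-inducible factor (HIF) for destruction while oxygen is present. When oxygen runs short, HIF accumulates, pairs with ARNT and binds a short DNA element in its target genes. Among those targets are glucose transporters, most glycolytic enzymes, kinases that keep pyruvate out of the mitochondrion, mitophagy receptors and VEGFA, the growth factor of blood vessels. HIF1A itself is controlled mainly at the level of its protein, which arrays of RNA do not measure.

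The core of the HIF-binding element is ACGTG or GCGTG, and it was searched on both strands of the 250 bases before each RefSeq gene start (build GRCh38.p14). The palindrome CACGTG, the E-box, holds ACGTG on each strand and so counts as 2 overlapping matches. Of the 35 genes, 31 were matched to a promoter, all but BNIP3L, NDRG1, SLC2A3 and VEGFA. At least 1 core stood before 27 of the 31 genes (87.1%), against 47.4% of the 27305 genes in the table. Counted per window, the shares were 68.6% of 51 windows and 43.2% of 35116. The member windows were also richer in G and C, with a median GC content of 69.6% against 58.0%, and the part of base composition in these shares was not tested. The 5 promoters below are printed because ENO2, P4HA1 and MXI1 rose between the times while LDHA and GAPDH, which hold more matches or as many, did not pass any test. Capitals mark the core or, for the 6-letter match, the whole E-box, and for a gene with several starts the window with the most matches is given.
ENO2: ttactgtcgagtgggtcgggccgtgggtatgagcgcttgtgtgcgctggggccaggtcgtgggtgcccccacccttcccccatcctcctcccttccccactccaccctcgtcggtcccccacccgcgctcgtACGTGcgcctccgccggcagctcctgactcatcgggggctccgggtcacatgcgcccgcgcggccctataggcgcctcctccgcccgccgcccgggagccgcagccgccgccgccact
P4HA1: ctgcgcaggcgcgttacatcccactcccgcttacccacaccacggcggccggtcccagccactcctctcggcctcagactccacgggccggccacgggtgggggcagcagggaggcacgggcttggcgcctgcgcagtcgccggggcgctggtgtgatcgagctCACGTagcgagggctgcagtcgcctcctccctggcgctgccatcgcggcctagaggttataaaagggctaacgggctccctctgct
MXI1: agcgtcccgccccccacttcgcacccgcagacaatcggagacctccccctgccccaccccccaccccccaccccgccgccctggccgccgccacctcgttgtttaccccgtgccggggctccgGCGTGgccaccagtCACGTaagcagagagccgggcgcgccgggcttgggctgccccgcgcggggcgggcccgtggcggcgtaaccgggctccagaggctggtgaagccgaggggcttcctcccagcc
LDHA: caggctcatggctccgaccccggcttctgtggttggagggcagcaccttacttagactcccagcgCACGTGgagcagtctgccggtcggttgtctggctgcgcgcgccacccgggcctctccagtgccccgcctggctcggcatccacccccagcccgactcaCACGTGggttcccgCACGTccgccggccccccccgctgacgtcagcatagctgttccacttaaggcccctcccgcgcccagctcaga
GAPDH: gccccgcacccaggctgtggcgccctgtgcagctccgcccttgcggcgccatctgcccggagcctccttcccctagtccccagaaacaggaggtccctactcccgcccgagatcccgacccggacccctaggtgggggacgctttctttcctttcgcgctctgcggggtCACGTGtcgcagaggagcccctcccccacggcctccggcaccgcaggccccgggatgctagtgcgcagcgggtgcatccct
These windows lie at chr12:6914330-6914579 on the plus strand for ENO2, chr10:73096867-73097116 on the minus strand for P4HA1 and chr10:110209981-110210230 on the plus strand for MXI1. Those of LDHA and GAPDH lie at chr11:18394313-18394562 and chr12:6535014-6535263, both on the plus strand. LDHA had 5 matches and 2 E-boxes, GAPDH and MXI1 2 matches each, and ENO2 and P4HA1 1 each. KDM4B, which also rose and is not printed, held 4 matches and 1 E-box. Among members that rose between the times, 5 of the 6 with an entry held a core, and 22 of the 25 other members did. Matching letters are no evidence of binding, which was not measured.

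Each transfected gene was highest in the cells labelled for it. RHOXF1 averaged 12.25 and 12.27 in RHOXF1 cells at 24 h and 48 h, against 6.34 and 6.13 in control cells, and the cluster shared by RHOXF2 and RHOXF2B averaged 12.83 and 12.92 in RHOXF2 cells, against 6.81 and 6.62. The RHOXF1 cluster also read above control in RHOXF2 cells, at 7.48 ± 0.49 (SD, n = 3) at 24 h and 7.97 ± 1.06 (SD, n = 3) at 48 h, with 1 array at 9.12. Genes that mark the HEK293 line, among them the neurofilament genes NEFL and NEFM, were measured for 7 of 8 listed and had mean levels from 6.55 to 12.82. Of 24 markers of other cell types 21 were measured, at mean levels from 3.54 to 7.92 with a median of 5.62, below the lower quartile of all values, 5.72. On the first principal component of all clusters, the RHOXF2 array numbered 3 at 48 h stood apart at -4.48, while the other arrays of 48 h lay between 9.36 and 26.25. The running array numbers of the descriptions are all low at 24 h and all high at 48 h, which means that the effect of time and that of an array batch cannot be told apart.

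The most regular feature of the hypoxia and glycolysis genes was a difference between arrays of the same group. At 24 h the array numbered 1 carried the highest level of its group in control, RHOXF1 and RHOXF2 cells alike for 28 of the 35 genes, against 12.4% of all named clusters. At 48 h the array numbered 2 did so in all 3 groups for 12 of the 35, against 3.73% of all. The labels do not say what a number stands for, and no batch is named that would join arrays of 1 number. The median gap between the array numbered 1 and the mean of its 2 partners at 24 h was 0.36 in control cells, 0.19 in RHOXF1 cells and 0.26 in RHOXF2 cells. At 48 h the gap of the array numbered 2 was 0.48 in control cells, 0.08 in RHOXF1 cells and 0.13 in RHOXF2 cells. The control array numbered 2 at 48 h was thus the array with the widest gap, and it was the highest of its group for 33 of the 35 genes. Of 24 other HIF target genes measured, 18 were highest on the 24 h arrays numbered 1 in every group and 9 on the 48 h arrays numbered 2. These too were listed by function, with earlier results of these data known.

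**Figure D1:**
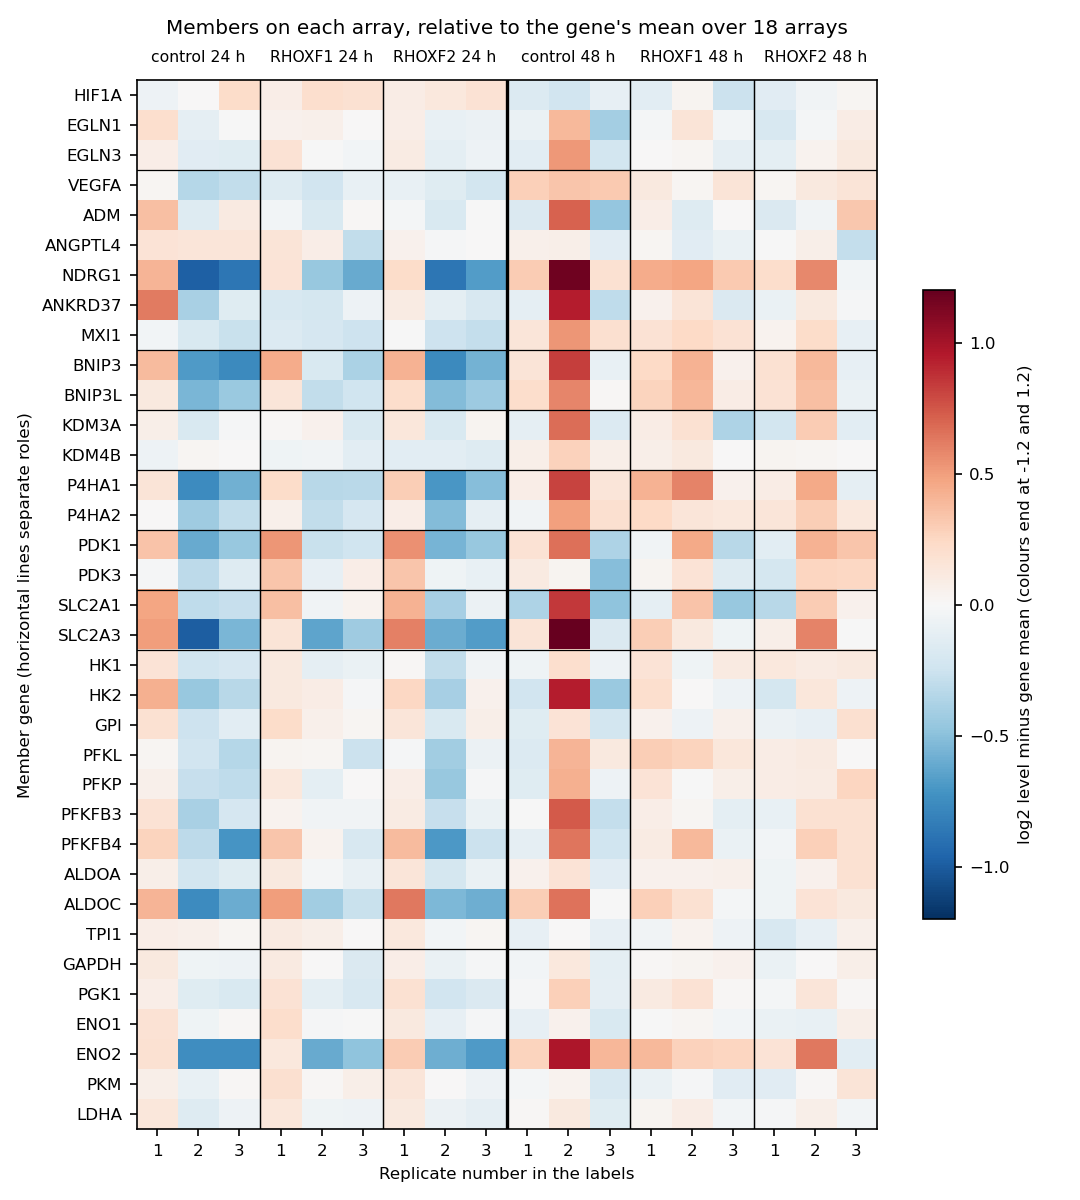
Each row is 1 of the 35 genes and each column 1 of the 18 arrays, in 6 groups of 3 ordered by replicate number. Colour gives the log2 level minus the gene's mean over the 18 arrays, and the columns numbered 1 at 24 h and the control column numbered 2 at 48 h are red for most genes.

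The spread was uneven among the genes. The pooled SD between arrays of a group had a median of 0.20 over the 35 genes and 0.13 over all named clusters. It lay above the median of all clusters for 27 genes and at or beyond percentile 95 for 16. The widest were the neuronal-type glucose transporter SLC2A3, with an SD of 0.62 and a range of 2.59 over the 18 arrays, and NDRG1, a stress-responsive gene of differentiation, with 0.50 and 2.15. PDK1 (0.47), BNIP3 (0.47), ALDOC (0.46) and SLC2A1 (0.45) followed. A difference in such bulk samples does not tell fewer expressing cells from less RNA per cell. The narrowest was the histone demethylase KDM4B, with an SD of 0.06. GAPDH and LDHA, housekeeping-level enzymes of glycolysis, ranged over only 0.29 and 0.30 across all 18 arrays. They lay at percentiles 99.91 and 99.65 of mean level, where array signal can saturate. Because of this spread, a difference between a RHOX group and control had a median SE of 0.15 over the 35 genes, against 0.10 over all clusters.

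**Figure D2:**
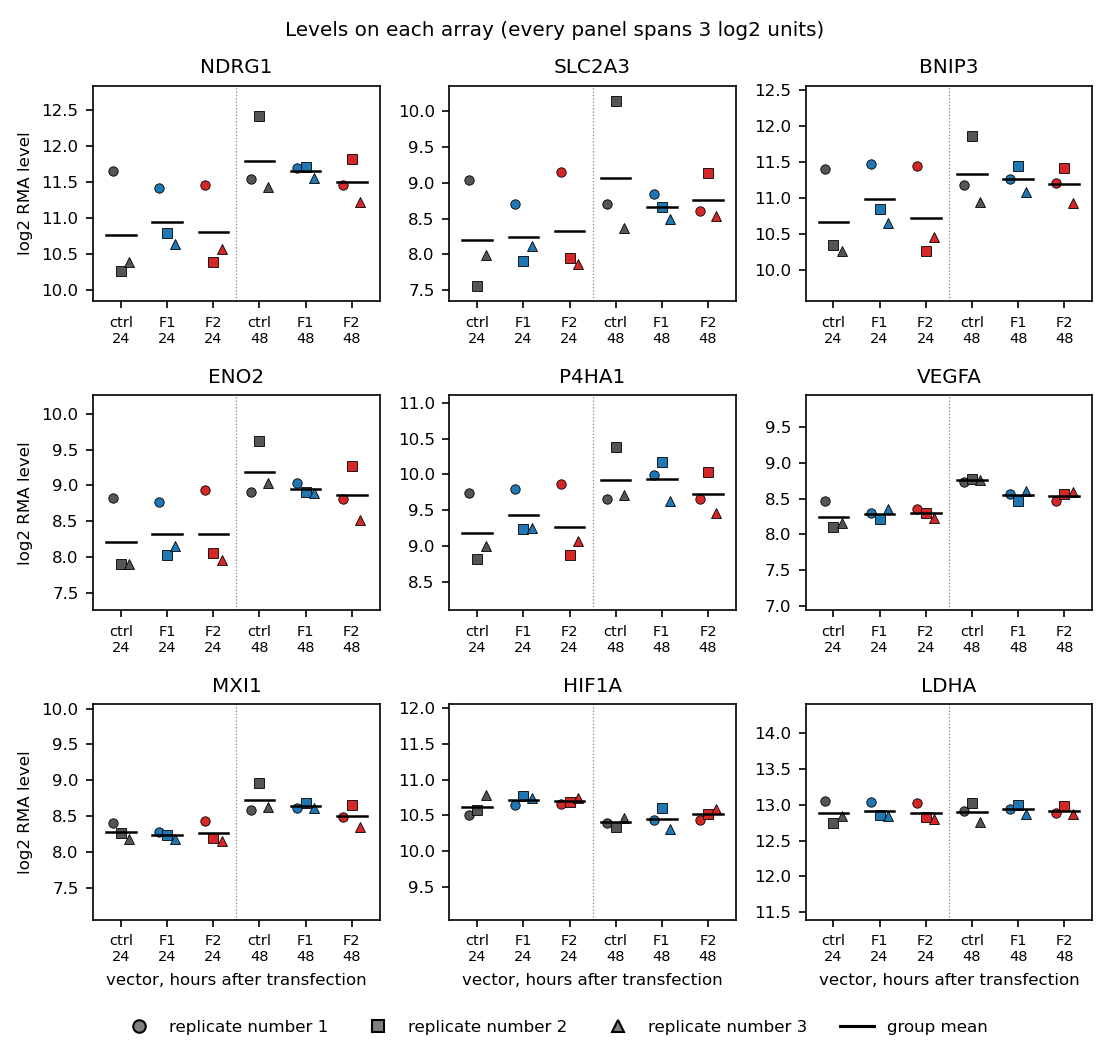
Points are the log2 RMA levels of 9 genes on every array, by vector (ctrl control, F1 RHOXF1, F2 RHOXF2) and time, with the replicate number as the marker and the group mean as a bar; every panel spans 3 log2 units. NDRG1, SLC2A3, BNIP3, ENO2 and P4HA1 show the high circle at 24 h and the high control square at 48 h, VEGFA and HIF1A have a narrower spread (pooled SD 0.10 each), and MXI1 and LDHA cover smaller ranges but keep the same order, with number 1 highest in every 24 h group and number 2 in every 48 h group.

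The first question of the design is whether either RHOX protein altered these genes. No member passed the test against control at either time, with limma's moderated test over all 18 arrays and p-values adjusted over the 21214 named clusters by the Benjamini-Hochberg method, with a threshold of 0.05. For RHOXF1 at 24 h, 29 of the 35 genes lay above control and 6 below, with a median difference of 0.10, against 0.00 over all clusters. None passed, none had an unadjusted p under 0.05, and the share of all clusters that passed was 0.00471%. Of all clusters 50.13% lay above control. After repeated quantile normalisation, cyclic loess or centring on medians, 26, 23 or 29 of the 35 lay above, so the size of this majority depends on the scaling. For RHOXF2 at 24 h, 25 lay above and 10 below, with a median of 0.04. None passed there either, or at an unadjusted p under 0.05, beside 0.00943% of all clusters. Repeated quantile normalisation or cyclic loess left 18 of the 35 above control in that comparison, and centring on medians left 29. The size of this majority thus also depends on the scaling.

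At 48 h more members lay below control than above it in the main fit. In RHOXF1 cells 15 genes lay above control and 20 below, with a median of -0.04, no call and 1 unadjusted p under 0.05, beside 0.00943% of all clusters called. In RHOXF2 cells 14 lay above and 21 below, with a median of -0.02, no call and 2 unadjusted p-values under 0.05, beside 0.0943% of all. Of all clusters 52.57% and 53.91% lay above control in RHOXF1 and RHOXF2 cells. After repeated quantile normalisation, cyclic loess or centring on medians, 14, 13 or 20 of the 35 lay above in RHOXF2 cells. The direction there rests on the scaling. In RHOXF1 cells 15, 14 or 16 lay above. Both comparisons use the same 3 control arrays. Without the control array numbered 2 the medians became 0.14 for RHOXF1 and 0.11 for RHOXF2, so the sign of the 48 h medians rested on that array. Without the RHOXF2 array numbered 3, which stood apart on the first component, the RHOXF2 median was -0.03. At 24 h, leaving out the control array numbered 1 raised the medians to 0.20 for RHOXF1 and 0.17 for RHOXF2. In none of these settings did a member pass.

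**Figure D3:**
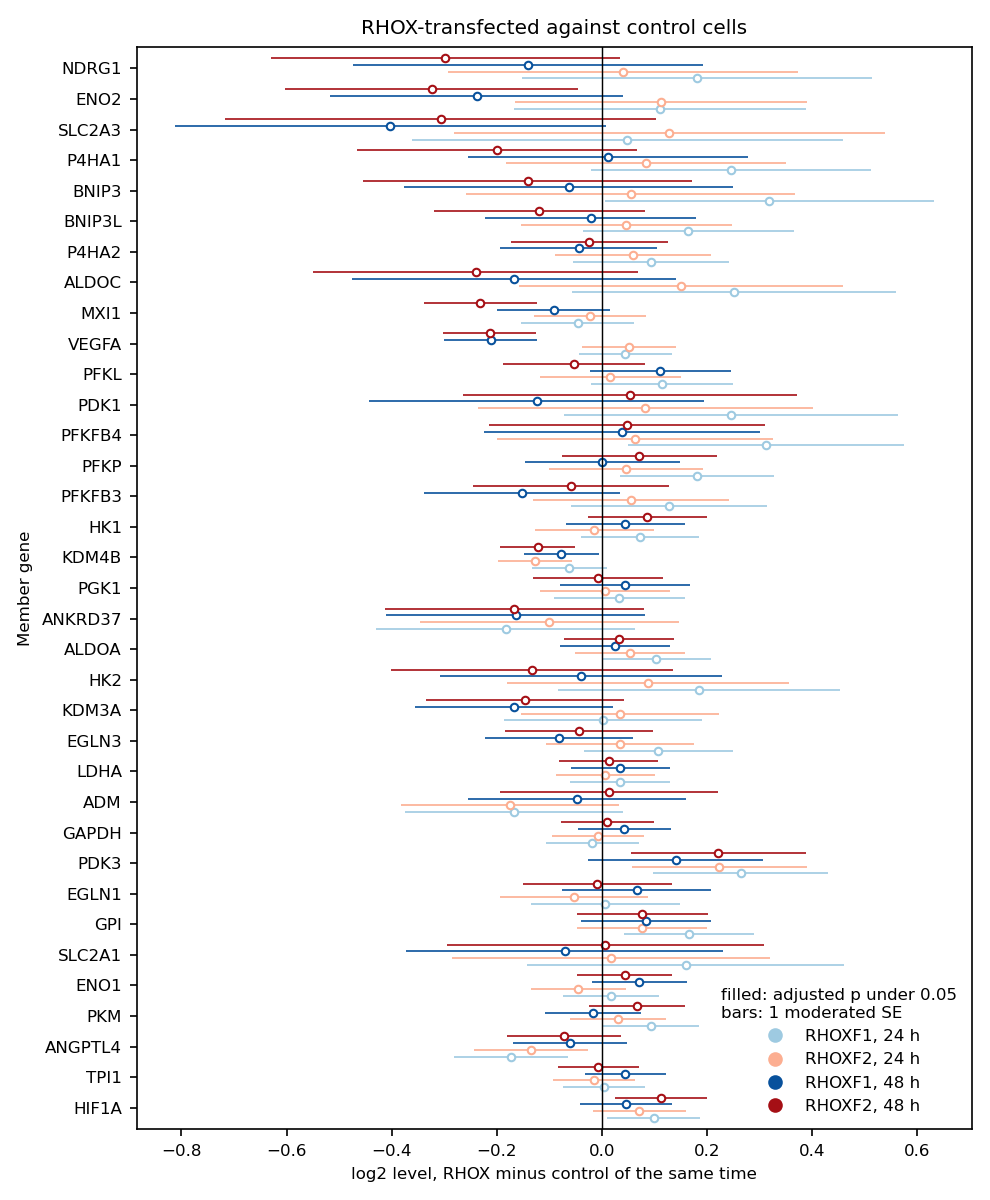
Points give the log2 level in RHOX-transfected cells minus that in control cells of the same time for 35 genes, with bars of 1 moderated SE; a filled point would mark an adjusted p under 0.05, and none is filled. The genes with the widest bars, such as SLC2A3, NDRG1 and BNIP3, are those with the widest spread between arrays.

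VEGFA, the secreted angiogenic factor, came nearest to a difference. In control cells it read 8.47, 8.11 and 8.15 on the arrays numbered 1, 2 and 3 at 24 h and 8.73, 8.77 and 8.76 at 48 h (this order of arrays holds throughout). In RHOXF1 cells it read 8.29, 8.22 and 8.36 at 24 h and 8.56, 8.46 and 8.60 at 48 h. In RHOXF2 cells the levels were 8.36, 8.30 and 8.22 and then 8.47, 8.56 and 8.60. At 24 h the 3 groups overlapped, and at 48 h every RHOX array lay below every control array. The 48 h difference from control was -0.21 ± 0.09 (SE, 3 against 3 arrays; adjusted p = 0.66, unadjusted 0.028) for RHOXF1 and -0.21 ± 0.09 (adjusted p = 0.34, unadjusted 0.027) for RHOXF2. Neither passed. Over all alternatives tried the difference stayed between -0.24 and -0.16 in both. VEGFA was the only member entirely below control in RHOXF1 cells at 48 h, where 5.39% of all clusters were, and VEGFA and KDM4B were the 2 in RHOXF2 cells, where 5.24% of all were. The difference between the 48 h and the 24 h effect on VEGFA was -0.26 ± 0.13 (SE) for RHOXF1 (adjusted p = 0.95) and -0.27 ± 0.13 for RHOXF2 (adjusted p = 0.57). No member passed that test for either vector, and unadjusted p-values under 0.05 numbered 0 and 1. Of all clusters 0% and 0.0141% passed.

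KDM4B, which removes methyl groups from lysine 9 of histone H3, was the member with the least spread. At 24 h it read 8.28, 8.36 and 8.34 in control cells, 8.29, 8.29 and 8.21 in RHOXF1 cells and 8.21, 8.20 and 8.18 in RHOXF2 cells. At 48 h it read 8.41, 8.61 and 8.41 in control cells, 8.40, 8.45 and 8.34 in RHOXF1 cells and 8.37, 8.36 and 8.34 in RHOXF2 cells. The RHOXF2 arrays lay below all control arrays at each time, by -0.13 ± 0.07 (SE; adjusted p = 0.70) and -0.12 ± 0.07 (adjusted p = 0.51), neither of which passed. In RHOXF2 cells at 24 h the lipoprotein lipase inhibitor ANGPTL4 was the other member entirely below control, at 6.31, 6.24 and 6.26 against 6.42, 6.40 and 6.40, a difference of -0.14 ± 0.11 (SE; adjusted p = 0.82). Of all clusters 7.18% lay entirely below control in that comparison, which is close to 2 of 35. ANGPTL4 read low throughout, at percentile 32.45 of mean level and at most 6.42, under the lowest array median of 6.68. No member lay entirely above control in any of the 4 comparisons. All clusters did so at 4.6% for RHOXF1 and 3.89% for RHOXF2 at 24 h, and at 7.17% and 6.59% at 48 h. None lay entirely below control in RHOXF1 cells at 24 h, where 4.93% of all clusters did.

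MXI1, an antagonist of MYC, had an unadjusted p of 0.044 in RHOXF2 cells at 48 h. It read 8.59, 8.97 and 8.63 in control cells at that time, 8.61, 8.68 and 8.61 in RHOXF1 cells and 8.48, 8.66 and 8.34 in RHOXF2 cells. The highest RHOXF2 array lay above the lowest control array, and the difference of -0.23 ± 0.11 (SE; adjusted p = 0.40) did not pass. SLC2A3 shows how much the control array numbered 2 counted. Its levels at 48 h were 8.70, 10.14 and 8.37 in control cells, 8.84, 8.66 and 8.49 in RHOXF1 cells and 8.61, 9.14 and 8.54 in RHOXF2 cells. The RHOXF1 difference was -0.40 ± 0.41 (SE; adjusted p = 0.87), and it turned to 0.13 without that control array. PDK3 phosphorylates and switches off pyruvate dehydrogenase. At 24 h it read 9.68, 9.38 and 9.54 in control cells, 10.03, 9.59 and 9.77 in RHOXF1 cells and 10.02, 9.65 and 9.60 in RHOXF2 cells. At 48 h it read 9.80, 9.72 and 9.18 in control cells, 9.73, 9.86 and 9.54 in RHOXF1 cells and 9.48, 9.96 and 9.94 in RHOXF2 cells. The groups overlapped at both times, and the array numbered 1 was again the highest of every 24 h group. The mean was above control in all 4 comparisons, by 0.26 ± 0.17 (SE), 0.22 ± 0.17, 0.14 ± 0.17 and 0.22 ± 0.17 for RHOXF1 and RHOXF2 at 24 h and then at 48 h. None of these passed, with adjusted p-values from 0.63 to 0.96, and the pairs at each time share control arrays. In RHOXF1 cells at 24 h the smallest p-values belonged to ANGPTL4, PDK3 and GPI, each with an adjusted p of 0.96. ANGPTL4 read 6.41, 6.33 and 5.96 there, which is -0.17 ± 0.11 (SE) from control. GPI, glucose-6-phosphate isomerase, read 12.38, 12.22 and 12.18 against 12.35, 11.91 and 12.04, a difference of 0.17 ± 0.12 (SE), with overlapping arrays.

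By role, the groups of genes showed the same lack of calls. All 10 genes of upper glycolysis, from the hexokinases to triosephosphate isomerase, lay above control in RHOXF1 cells at 24 h, by 0.00 to 0.31, and 7 of 10 did at 48 h, by -0.17 to 0.11. At 48 h the control array numbered 2 was the highest of its group for 33 of the 35 genes. Leaving it out therefore raises their differences from control. By role, only this array was left out, a choice made after the values were seen. Without it all 10 lay above control in RHOXF1 cells at 48 h, by 0.00 to 0.39, and 9 of 10 in RHOXF2 cells. The 6 secreted or signalling targets (VEGFA, ADM, ANGPTL4, NDRG1, ANKRD37 and MXI1) all lay below control in RHOXF1 cells at 48 h, by -0.21 to -0.05, and 5 of 6 did in RHOXF2 cells, by -0.30 to 0.01. Without the control array numbered 2, 4 of the 6 lay above control in RHOXF1 cells at 48 h and 3 of 6 in RHOXF2 cells. The mitophagy receptors BNIP3 and BNIP3L, which tag mitochondria for removal, lay above control at 24 h and below it at 48 h with either vector. For BNIP3 the RHOXF1 differences were 0.32 ± 0.31 (SE) and -0.06 ± 0.31. Without that control array the 48 h differences turned positive in both genes and vectors, at 0.20 and 0.12 for BNIP3 and 0.14 and 0.04 for BNIP3L in RHOXF1 and RHOXF2 cells. The sensors EGLN1 and EGLN3 differed from control by between -0.08 and 0.11, and GAPDH and LDHA by between -0.02 and 0.04. The 95% interval of the LDHA difference ran from -0.16 to 0.23 for RHOXF1 at 24 h, and that of SLC2A3 from -0.81 to 0.91, so the precision differed widely between members.

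Between the vectors themselves no member passed at 24 h or 48 h, none had an unadjusted p under 0.05, and 0.0141% and 0.0519% of all clusters passed. At 24 h 27 of the 35 genes were higher in RHOXF1 than in RHOXF2 cells, with a median of 0.06, and at 48 h 20 were, with a median of 0.01. After repeated quantile normalisation, cyclic loess or centring on medians the 48 h count was 15, 18 or 13, so its direction rests on the scaling. KDM4B was the member whose RHOXF1 arrays all lay above the RHOXF2 arrays at 24 h, by 0.06 ± 0.07 (SE; adjusted p = 0.9999), beside 3.84% of all clusters. At 48 h it was PFKL, the liver-type phosphofructokinase, by 0.16 ± 0.13 (SE; adjusted p = 0.9981), beside 4.78% of all. No member had all RHOXF1 arrays below the RHOXF2 arrays at either time, which 2.36% and 4.46% of all clusters had. PFKL read 10.69, 10.67 and 10.54 in RHOXF1 cells and 10.50, 10.51 and 10.40 in RHOXF2 cells.

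The second question is what changed between 24 h and 48 h. Averaged over the 3 vectors, 9 of the 35 genes rose and 1, HIF1A, fell. NDRG1 rose by 0.81 ± 0.19 (SE, 9 against 9 arrays) and ENO2 by 0.72 ± 0.16, the largest rises. P4HA1 rose by 0.56 ± 0.15, BNIP3L by 0.45 ± 0.12, P4HA2 by 0.38 ± 0.09, MXI1 by 0.36 ± 0.06, VEGFA by 0.34 ± 0.05, PFKL by 0.28 ± 0.08 and KDM4B by 0.15 ± 0.04. The calls come to 28.6% of the members, near the 29.6% of all clusters that passed in this comparison (16.3% higher and 13.3% lower). The 2 shares parted most without all arrays numbered 1 (48.6% of members, 23.3% of all), an omission chosen after the values were seen. Without the control array numbered 1 at 24 h alone they were 42.9% and 28.8%. They stayed nearer without all arrays numbered 2 (8.57% and 11.9%) or 3 (20% and 22.3%). The direction was less even, since 26 of the 35 were higher at 48 h, with a median of 0.13, against 47.05% of all clusters and a median of -0.01. No member separated all 9 arrays of 48 h from all 9 of 24 h, which 2.87% of all clusters did upward and 0.853% downward.

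In control cells alone 5 genes rose and none fell, VEGFA, MXI1, ENO2, NDRG1 and P4HA2, or 14.3% of the members beside 17.8% of all clusters (9.89% higher and 7.89% lower). In RHOXF1 cells MXI1 was the 1 member called, beside 4.42% of all (3.06% higher and 1.35% lower), and in RHOXF2 cells none was, beside 1.24% of all, with 4 members at an unadjusted p under 0.05. Members entirely above their 24 h arrays numbered 4 in control cells, 7 in RHOXF1 cells and 6 in RHOXF2 cells, and members entirely below them 3, 2 and 1. The shares of all clusters were 14.7%, 15.1% and 12% above and 15.7%, 14.7% and 8.11% below. A call in 1 vector and not in another does not show a difference, and no member passed the test of the difference given above.

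**Figure D4:**
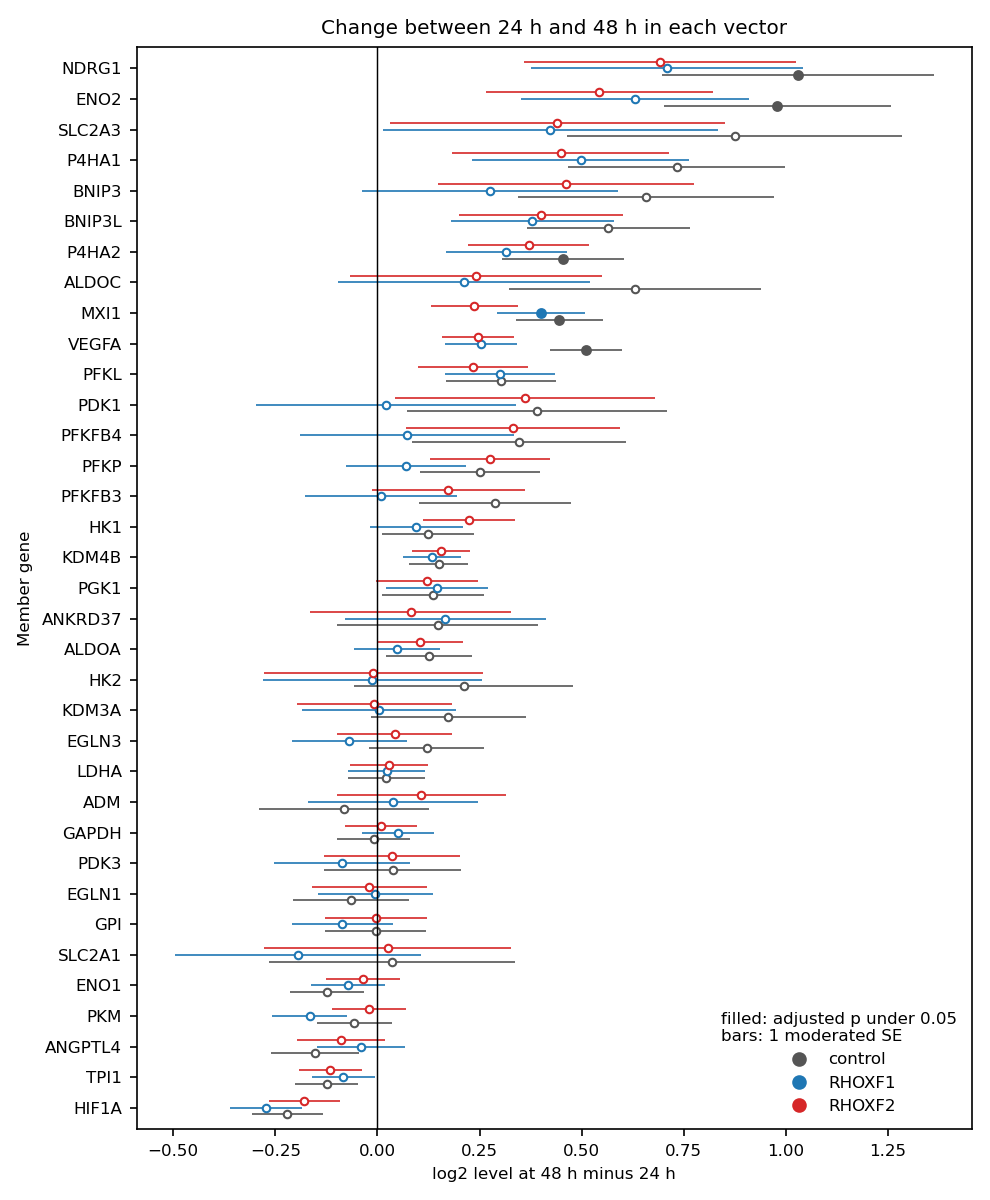
Points give the log2 level at 48 h minus that at 24 h for 35 genes in control, RHOXF1 and RHOXF2 cells, with bars of 1 moderated SE and filled points for an adjusted p under 0.05. The filled points are 5 genes in control cells and MXI1 in RHOXF1 cells, NDRG1 and ENO2 lie farthest to the right, and HIF1A lies to the left of 0 in every vector.

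The genes of oxygen sensing come first in the pathway, and 1 of the 3 passed over the vectors, beside 29.6% of all clusters. HIF1A, the regulated subunit of the factor, read 10.51, 10.57 and 10.79 in control cells at 24 h and 10.40, 10.34 and 10.47 at 48 h. In RHOXF1 cells it read 10.65, 10.76 and 10.75 and then 10.44, 10.60 and 10.31, and in RHOXF2 cells 10.65, 10.69 and 10.74 and then 10.43, 10.52 and 10.59. Within each vector every array of 48 h lay below every array of 24 h. The mean change over the vectors was -0.22 ± 0.05 (SE; adjusted p = 0.0027), and the change within single vectors, from -0.27 to -0.18, did not pass. EGLN1, the main oxygen-dependent hydroxylase, differed by -0.03 ± 0.08 (adjusted p = 0.82) and its hypoxia-inducible relative EGLN3 by 0.03 ± 0.08 (adjusted p = 0.80) over the 3 vectors, neither of which passed.

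Among the secreted and signalling targets, VEGFA rose by 0.51 ± 0.09 (SE) in control cells, 1.43-fold (adjusted p = 0.0015). The changes of 0.25 ± 0.09 in RHOXF1 cells (adjusted p = 0.11) and 0.25 ± 0.09 in RHOXF2 cells (adjusted p = 0.16) did not pass, although all 48 h arrays lay above all 24 h arrays in each vector. MXI1 read 8.41, 8.26 and 8.18 in control cells at 24 h, 8.28, 8.24 and 8.19 in RHOXF1 cells and 8.43, 8.20 and 8.15 in RHOXF2 cells. Beside the 48 h levels above, it rose by 0.45 ± 0.11 (SE) in control cells (adjusted p = 0.0091) and by 0.40 ± 0.11 in RHOXF1 cells (adjusted p = 0.042). The control rise was lost under 4 of the 17 alternatives, among them without the 48 h array numbered 2 (0.33, adjusted p = 0.053). The RHOXF1 rise did not pass without any 1 of the 6 RHOXF1 arrays, with adjusted p from 0.068 to 0.15. VEGFA, MXI1 and HIF1A were the 3 members whose mean change over the vectors passed under every alternative tried, including without all arrays of any 1 number.

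NDRG1 had the largest change and one of the largest spreads. At 24 h it read 11.65, 10.26 and 10.38 in control cells, 11.41, 10.79 and 10.64 in RHOXF1 cells and 11.46, 10.38 and 10.57 in RHOXF2 cells. At 48 h it read 11.54, 12.41 and 11.43 in control cells, 11.69, 11.71 and 11.56 in RHOXF1 cells and 11.45, 11.82 and 11.21 in RHOXF2 cells. In every vector the 24 h array numbered 1 was the highest, and in control and RHOXF2 cells it reached into the 48 h range. NDRG1 rose by 1.03 ± 0.33 (SE) in control cells, 2.04-fold (adjusted p = 0.040). Without the control array numbered 2 at 48 h the difference was 0.72 and did not pass (adjusted p = 0.17), and the call was lost under 8 of the 17 alternatives in all. ADM, ANGPTL4 and ANKRD37, the remaining targets of this kind, differed by 0.02 ± 0.12 (SE), -0.09 ± 0.06 and 0.13 ± 0.14 over the vectors, none of which passed.

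The collagen prolyl 4-hydroxylase subunits P4HA1 and P4HA2, which stabilise collagen in the endoplasmic reticulum, both rose over the vectors. P4HA1 read 9.74, 8.82 and 9.00 in control cells at 24 h and 9.65, 10.39 and 9.72 at 48 h. In RHOXF1 cells it read 9.80, 9.25 and 9.26 and then 10.00, 10.17 and 9.63, and in RHOXF2 cells 9.87, 8.88 and 9.07 and then 9.66, 10.03 and 9.47. In every vector the array numbered 1 at 24 h lay among those of 48 h, and the change of 0.73 ± 0.27 (SE; adjusted p = 0.064) did not pass in control cells alone. P4HA2 read 8.49, 8.06 and 8.20 and then 8.45, 8.98 and 8.68 in control cells, a rise of 0.45 ± 0.15 (SE; adjusted p = 0.042). That call was lost under 10 of the 17 alternatives, in which the difference ran from 0.22 to 0.70, and without the control array numbered 2 at 48 h it was 0.32 (adjusted p = 0.18). In RHOXF1 cells P4HA2 read 8.55, 8.20 and 8.28 and then 8.72, 8.63 and 8.62, and in RHOXF2 cells 8.57, 7.97 and 8.38 and then 8.64, 8.79 and 8.61. Here the times did not overlap, yet the changes of 0.32 ± 0.15 (adjusted p = 0.24) and 0.37 ± 0.15 (adjusted p = 0.21) did not pass.

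Of the mitophagy receptors, BNIP3L rose over the 3 vectors (adjusted p = 0.0068), and BNIP3 differed by 0.47 ± 0.18 (SE; adjusted p = 0.061), which did not pass. BNIP3L read 11.13, 10.46 and 10.57 in control cells at 24 h and 11.22, 11.60 and 11.03 at 48 h. In RHOXF1 cells BNIP3L read 11.16, 10.72 and 10.78 and then 11.28, 11.41 and 11.10, and in RHOXF2 cells 11.23, 10.49 and 10.58 and then 11.18, 11.38 and 10.93. In every vector the 24 h array numbered 1 lay above at least 1 array of 48 h. Its near relative BNIP3 read 11.40, 10.35 and 10.26 and then 11.18, 11.86 and 10.94. Here too the control array numbered 1 at 24 h lay within the 48 h range. Of the histone demethylases, KDM4B rose (adjusted p = 0.011), with all 48 h arrays above all 24 h arrays in each vector, and KDM3A differed by 0.06 ± 0.11 (SE; adjusted p = 0.73). KDM4B did not pass without the arrays of any 1 number (adjusted p = 0.084, 0.16 and 0.053 for numbers 1, 2 and 3), with differences of 0.15, 0.13 and 0.16.

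The glucose transporters and the pyruvate dehydrogenase kinases had no call. SLC2A3 read 9.04, 7.55 and 7.99 in control cells at 24 h, and its change over the vectors was 0.58 ± 0.24 (SE; adjusted p = 0.074). SLC2A1, the basal transporter, read 11.09, 10.31 and 10.35 in control cells at 24 h and 10.26, 11.47 and 10.14 at 48 h, and differed by -0.04 ± 0.17 over the vectors (adjusted p = 0.87). In both genes 1 array of 3 stood well above the others at each time. PDK1 differed by 0.26 ± 0.18 (SE; adjusted p = 0.31) and PDK3 by -0.01 ± 0.10 (adjusted p = 0.97).

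Of the 16 genes of glycolysis proper, 2 were called over the vectors, beside 29.6% of all clusters. In the upper part, PFKL was the 1 of 10 genes called over the vectors (adjusted p = 0.011). PFKL read 10.42, 10.17 and 10.06 in control cells at 24 h and 10.24, 10.81 and 10.52 at 48 h. At 24 h it read 10.43, 10.42 and 10.15 in RHOXF1 cells and 10.39, 9.98 and 10.33 in RHOXF2 cells, and beside their 48 h levels above the times did not overlap in either. Of the other 9, PFKP (0.20 ± 0.08, SE; adjusted p = 0.086) and HK1 (0.15 ± 0.07; adjusted p = 0.098) came next, and ALDOC, the brain-type aldolase, had the largest difference, 0.36 ± 0.18 (adjusted p = 0.14). The hexokinase HK2, the bifunctional regulators PFKFB3 and PFKFB4, the isomerase GPI and the muscle-type aldolase ALDOA differed by 0.06, 0.16, 0.25, -0.03 and 0.09, with adjusted p-values from 0.23 to 0.79. TPI1, which interconverts the triose phosphates, differed by -0.11 ± 0.04 at its brighter cluster (adjusted p = 0.078) and -0.13 at the dimmer one (adjusted p = 0.054). In the lower part, the neuronal enolase ENO2 was the 1 of 6 called. ENO2 read 8.83, 7.90 and 7.90 in control cells at 24 h, 8.76, 8.04 and 8.16 in RHOXF1 cells and 8.94, 8.06 and 7.96 in RHOXF2 cells. At 48 h it read 8.91, 9.62 and 9.04 in control cells, 9.03, 8.91 and 8.90 in RHOXF1 cells and 8.81, 9.27 and 8.52 in RHOXF2 cells. The times did not overlap in control and RHOXF1 cells, and in RHOXF2 cells the 24 h array numbered 1 lay above 2 of the 48 h arrays. ENO2 rose by 0.98 ± 0.28 (SE) in control cells, 1.97-fold (adjusted p = 0.023). The call was lost under 6 of the 17 alternatives. Without the control array numbered 2 at 48 h the difference was 0.77 (adjusted p = 0.10), and without all arrays of that number 0.61 (adjusted p = 0.29). The ubiquitous enolase ENO1 differed by -0.08 ± 0.05 over the vectors (adjusted p = 0.28), GAPDH by 0.02 ± 0.05 (adjusted p = 0.84), LDHA, which turns pyruvate into lactate, by 0.02 ± 0.05 (adjusted p = 0.77), PKM by -0.08 ± 0.05 (adjusted p = 0.26), and the phosphoglycerate kinase PGK1 by 0.13 ± 0.07 (adjusted p = 0.17).

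LDHA read 13.04, 12.75 and 12.85 in control cells at 24 h and 12.92, 13.03 and 12.76 at 48 h. GAPDH read 13.61, 13.44 and 13.43 and then 13.46, 13.62 and 13.38. Within these narrow ranges the control arrays kept the order of the other members, with the array numbered 1 highest at 24 h and the array numbered 2 highest at 48 h.

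The arrays left out bore on the number of time calls, among the members and among all clusters. In control cells, leaving out the 48 h array numbered 2 lowered the members called from 5 to 1, or 2.86%, and the share of all clusters called from 17.8% to 11.3%. The median over the members went from 0.15 to 0.02. Leaving out the 24 h array numbered 1 raised the members called to 10, or 28.6%, and their median to 0.29, while the share of all clusters fell to 14.7%. Without the 24 h array numbered 2 there were 2 members called (5.71%), beside 10% of all, and without the one numbered 3 also 2, beside 15% of all. With both control arrays numbered 2 left out the members' median turned to -0.04, and 0 were called beside 1.69% of all. With both numbered 1 left out it was 0.47, and 11 were called (31.4%) beside 13.9% of all. Over the 3 vectors, leaving out all arrays numbered 2 lowered the calls from 10 to 3, or 8.57% of the members, beside 11.9% of all clusters. Leaving out all those numbered 1 raised the calls to 17, or 48.6%, beside 23.3% of all. These omissions by number were chosen after the values were seen. What set these arrays apart was not tested.

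Genes of the same pathways outside the list were counted over the 3 vectors, where 16.3% of all clusters rose and 13.3% fell. They were listed by function, but with earlier results of these data known, so they are no independent check. Their counts were not repeated with arrays left out. Of 24 other HIF target genes measured (27 listed), 21 were higher at 48 h, 11 rose and none fell. DDIT4, an inhibitor of mTOR signalling, rose by 0.97 ± 0.26 (SE), the lysyl oxidase LOXL2 by 0.80 ± 0.14, the secreted glycoprotein STC2 by 0.76 ± 0.13 and the lipoprotein receptor VLDLR by 0.70 ± 0.09. Of 13 other genes of the HIF system (14 listed), EPAS1, which encodes the alpha subunit HIF-2, rose by 0.60 ± 0.09 (SE) and ARNT by 0.21 ± 0.05, while 5 fell, among them HIF1AN, the asparaginyl hydroxylase, by -0.24 ± 0.07. Of 16 other glycolysis and lactate genes (20 listed), 2 rose and 4 fell, TIGAR, a fructose bisphosphatase, by -0.63 ± 0.13. Of 10 genes of pyruvate entry into the mitochondrion (11 listed), 2 rose and 4 fell, DLAT and PDHB of the pyruvate dehydrogenase complex by -0.32 ± 0.05 and -0.31 ± 0.06. Of 6 genes of the pentose phosphate pathway (7 listed), 2 rose and 2 fell. In control cells alone, where 9.89% of all clusters rose and 7.89% fell, 5 of the other HIF targets rose and none fell, among them VLDLR by 0.97 ± 0.15 (SE), LOXL2 by 1.07 ± 0.23 and STC2 by 1.05 ± 0.22.

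None of these 5 lists had a gene that passed against control with either vector at either time. The other HIF targets were above control at 48 h for 8 of 24 genes in RHOXF1 cells, with a median of -0.15, and for 5 of 24 in RHOXF2 cells, with a median of -0.18. Of all clusters 52.57% and 53.91% were above control. Both comparisons use the same 3 control arrays and were not repeated for this list without the control array numbered 2. The 48 h arrays numbered 2 were the highest in every group for 9 of these 24 genes. The orphan receptor RORA had the lowest p-value among them in RHOXF1 cells, at -0.48 ± 0.16 (SE; adjusted p = 0.53). In RHOXF2 cells at 48 h, 4 of 12 heat shock genes were called above control in the same test, beside 0.0943% of all clusters. HSPA6, DNAJB1, HSPH1 and BAG3 differed from control by 1.98 ± 0.30 (SE), 1.57 ± 0.22, 1.12 ± 0.15 and 0.57 ± 0.11. This list too was made with earlier results known. Its called genes are examples of differences that passed and do not give the smallest that could.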

How the data were processed

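Values are log2 RMA expression values of 18 arrays, deposited by the authors and made with Affymetrix Expression Console 3.1 and RMA, per the labels and the submitters' processing notes. Sample descriptions name a Human Gene ST array, whereas the series text names an exon array. The genome build is not given in the sources used here, and array clusters carry no positions in the text. Symbols came from the platform's annotation table. No cluster was filtered, and no pair of arrays was identical.

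All named clusters entered 1 fit (limma 3.58.1, R 4.3.3, functions lmFit and eBayes, 1 mean per group, 12 residual and 6.5 prior degrees of freedom). There were 12 two-sided contrasts, each adjusted over 21214 clusters by the Benjamini-Hochberg method at 0.05. Errors are moderated SEs, and a spread is the pooled SD within groups. The fit was tested on simulated data. Tests were refitted without each array, with a replicate block, on each comparison's own groups, on all clusters, at a threshold of 0.1 and after 3 scalings. Promoters came from RefSeq, and bases after the start were not searched.

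The members and the comparison lists were chosen with earlier results of these data known. Every member is named. Values on every array are given for members called and for the 3 smallest p-values of each comparison with control. Genes named from the other lists are only some of those with the smallest p-values. Over the 3 vectors ELOC and CUL2 fell with smaller p-values than HIF1AN, and RORA rose with a smaller one than DDIT4. In control cells RORA also rose, with a smaller p-value than STC2 and LOXL2.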

Additional observations from a re-analysis of the deposited data

How the results depend on the processing

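No member passed in any comparison of a RHOX vector with control, of the 2 vectors, of the effects between times or of the times in RHOXF2 cells when any 1 array, or all arrays of 1 number, were left out. The time counts moved. In control cells the 5 members called became 2 with the comparison's own groups alone (7.52% of all clusters called), 2 with all clusters of the array tested (8.89%) and 8 at an adjusted p under 0.1 (26.8%), and 0 to 11 with arrays left out. In RHOXF1 cells the 1 member became 3 (8.49%), 0 (1.34%) and 2 (8.87%) under the same settings, and 0 to 0 with arrays left out. Over the 3 vectors the 10 members became 3 to 17 with arrays left out. The RHOXF1 difference of SLC2A3 at 48 h, -0.40, ran from -0.75 to 0.13 with arrays left out, and it was positive without the control array numbered 2 (0.1319) and without all arrays of that number (0.1337). The cause of these shifts was not tested.

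Same-numbered arrays had residuals with a correlation over 0.1 in 8 of 9 pairs of 24 h arrays and in 2 of 9 of 48 h arrays, and 8 and 2 of 9 arrays correlated best with their own number. At 24 h the arrays numbered 1 correlated at 0.45 to 0.52. The labels do not say that the numbers pair the samples, and the main fit did not pair them. Its SEs therefore include variation that same-numbered arrays of 24 h shared. With the replicate block the counts were 0 in every comparison within a time, and 7, 1, 0 and 11 between the times in control, RHOXF1 and RHOXF2 cells and over the 3 vectors. The block changed no other count by more than 1.5 times, and the 5, 1 and 10 members called without it were among those called with it.

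After the 3 scalings the largest median over all clusters was 0.07, for RHOXF2 against control at 48 h, where the main fit gave 0.01. In RHOXF2 cells, members above control numbered 18 to 29 at 24 h and 13 to 20 at 48 h, over 3 scalings. The same counts in RHOXF1 cells were 23 to 29 at 24 h and 14 to 16 at 48 h. Of 594 values of single members under alternatives, 542 kept their direction and side of the threshold, 50 lost the call and 2 reversed. These values include comparisons with control in which no member was called, so those had no call to lose. In control cells the time call was lost under 1 of 17 alternatives for VEGFA, 4 for MXI1, 6 for ENO2, 8 for NDRG1 and 10 for P4HA2. MXI1 in RHOXF1 cells lost its call under 10 of 17. The omissions by number were added after seeing the data. The median SE of 0.15 against control sets the size of difference that 3 arrays a group could resolve in these genes in the fit without a block.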
